A study of Homo sapiens with 45 samples.

Results

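Receptor genes for 3 families of growth signals, the ALK ligands, the GDNF family and the neurotrophins, were followed in ADRN-type neuroblastoma cell lines treated with the CDK4/6 inhibitor palbociclib (PB). The genes were taken by name, as receptors that set growth and differentiation in neuroblastoma: ALK and LTK, RET with its coreceptors GFRA1, GFRA2 and GFRA3, and NTRK2, NTRK3 and NGFR. They are 9 of the 29159 genes in each count table. RNA-seq with polyA selection was carried out on 3 established lines (SH-SY5Y, IMR-32 and SK-N-BE(2)C) as untreated control cells, after 24 h of PB at 1 μM and after longer PB, with 5 libraries in each of the groups (45 in all). Longer PB was 7 d in SK-N-BE(2)C and 5 d in IMR-32 and SH-SY5Y, so that line and duration cannot be told apart in comparisons between SK-N-BE(2)C and the other lines. Control cells were collected with the 24 h samples, so longer PB also differed from control by time in culture. Among the alterations given for the lines, SK-N-BE(2)C carries MYCN amplification, IMR-32 carries amplified MYCN and MEIS1, and SH-SY5Y carries mutant ALK. Each line is wild type for CDK4 and CDK6. Each line stands for the neuroblastoma of one patient grown in culture without other cell types, and the replicates are different passages of that line.

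ALK and LTK are related receptor tyrosine kinases that share the ligands ALKAL1 and ALKAL2, and activating changes in ALK are known drivers of neuroblastoma. RET is the kinase for the GDNF family, which it binds only together with a membrane-anchored coreceptor: GFRA1 prefers GDNF, GFRA2 neurturin (NRTN) and GFRA3 artemin (ARTN). NTRK2 is the kinase receptor for BDNF and NTRK3 that for NTF3, while NGFR, which has no kinase domain, binds every neurotrophin and acts alone or beside the NTRK kinases. In the sympathetic lineage, from which neuroblastoma arises, these receptors act at successive stages of division, axon growth and survival.

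Library totals ran from 13459219 to 25441812 counts, so that 1 CPM (reads of a gene scaled to the library total) stood for about 18.5 reads at the median depth, and a count of 0 allowed up to 0.223 CPM in the shallowest library (3 counts). A gene was called when the edgeR quasi-likelihood test gave a Benjamini-Hochberg adjusted p under 0.05 over all genes tested in a line and the log2 fold change lay beyond 0.5 either way. The adrenergic neuroblast markers were present, with at least 10 of 11 at 1 CPM or more in every group (their levels under PB are given with the other marker lists). Of the Schwann cell lineage markers, CDH19 was below 0.1 CPM in every group and FOXD3 in all but the IMR-32 control cells, and SOX10 was not analysed here. Other genes of that list of 9 found were present, with 4 or 5 at 1 CPM or more in the groups of SK-N-BE(2)C, 4 in those of SH-SY5Y and 2 in those of IMR-32. All 8 genes of a CDK4/6-RB-E2F check list fell at 24 h in each line. From 24 h to 5 d, 8 of 8 rose in IMR-32 (median log2 fold change 1.84) and 6 of 8 in SH-SY5Y (median 1.36), and after longer PB 6 of 8 were still called below control in IMR-32 and 8 of 8 in the other lines. Libraries did not spread evenly. In SK-N-BE(2)C, replicates 3 to 5 were close to each other (chi-square per degree of freedom 1.69 to 3.18 in control and at 24 h, against 7.05 to 23.6 for other pairs). At 7 d this held for replicates 4 and 5 alone (5.60), and replicate 3 was at 28.8 and 29.5 from them, so that summing replicates 3 to 5 there joined unlike libraries. In IMR-32 replicate 5 stood furthest from the rest in control cells, where every pair that held it reached at least 56.8 and no other pair passed 12.4. At 24 h in IMR-32 replicate 2 also stood apart (40.4 to 86.9 from the others), and leaving that library out changed no call of a member within the line. Results that rest on these libraries are given with and without them.

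In untreated cells each line had a set of receptors of its own. Levels between genes are compared as RPKM, CPM per kilobase of exon, since CPM grows with gene length. RET was by far the most abundant member in SK-N-BE(2)C (77.3 RPKM) and in SH-SY5Y (87.2 RPKM), and was close to absent from IMR-32 (0.0024 RPKM). IMR-32 held instead both coreceptors GFRA2 (33.95 RPKM) and GFRA1 (25.5 RPKM), followed by NGFR (23.7 RPKM), ALK (14.6 RPKM) and NTRK3 (2.62 RPKM). SK-N-BE(2)C paired RET with GFRA2 (16.5 RPKM), and also expressed LTK (12.3 RPKM), NGFR (6.44 RPKM) and ALK (1.47 RPKM). SH-SY5Y had ALK at 6.31 RPKM and LTK at 3.62 RPKM, and its only coreceptor gene above 0.1 RPKM was GFRA3 (3.34 RPKM). RET was thus found with hardly any GFRA1 in 2 lines, and GFRA1 with GFRA2 but hardly any RET in the third.

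**Figure D1:**
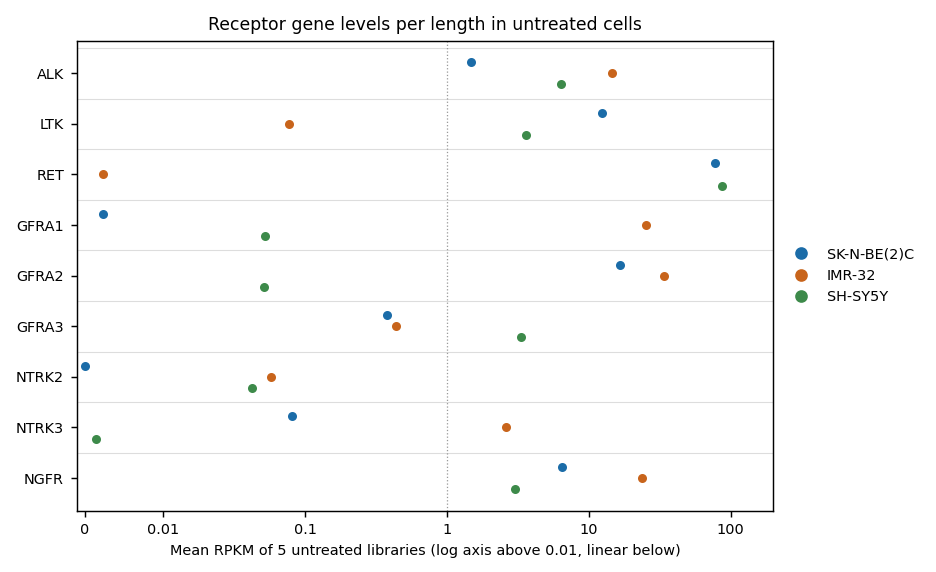
Mean RPKM (x axis, log scale above 0.01 and linear below) of the 9 receptor genes in the 5 untreated libraries of each line, coloured by line. RET sits near 80 to 90 RPKM in SK-N-BE(2)C (77.3) and SH-SY5Y (87.2) and near 0 in IMR-32, while GFRA1 is above 1 RPKM only in IMR-32 (25.5).

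In a fit over the 45 libraries, the control level differed for 4 of the 5 members that had enough reads in both lines for SK-N-BE(2)C against IMR-32 (62.1% of all genes), for 4 of 5 for SK-N-BE(2)C against SH-SY5Y (57.5%) and for 3 of 4 for IMR-32 against SH-SY5Y (54.2%). The other members entered that fit through the line in which they were high, so their differences are given as levels only. RET was the exception between SK-N-BE(2)C and SH-SY5Y (log2 difference 0.03 ± 0.19 SE, 95% interval -0.35 to 0.41). GFRA3 did not differ detectably between SK-N-BE(2)C and IMR-32 (-0.18 ± 0.64, interval -1.48 to 1.12), nor NTRK2 between IMR-32 and SH-SY5Y (0.64 ± 0.44, interval -0.27 to 1.54). ALK was highest in IMR-32, where it was above SH-SY5Y by 1.39 ± 0.30 (adjusted p = 8e-05), and SH-SY5Y was above SK-N-BE(2)C by 1.88 ± 0.32 (adjusted p = 1.7e-06). The order for NGFR was IMR-32, SK-N-BE(2)C, SH-SY5Y, with log2 steps of 1.87 ± 0.36 and 1.29 ± 0.37 (adjusted p = 1.1e-05 and 0.0017). For LTK it was SK-N-BE(2)C, SH-SY5Y, IMR-32, the first step being 1.96 ± 0.28 (adjusted p = 4e-08) and the second ending at under 0.4 CPM in each of the 5 IMR-32 control libraries. NTRK2 stayed low everywhere, at 0 in all 5 control libraries of SK-N-BE(2)C and with means of 1.90 CPM in IMR-32 and 1.39 CPM in SH-SY5Y. These counts are per gene, so kinase-bearing and truncated transcripts of NTRK2 and NTRK3 were not separated.

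The number of members called at 24 h of PB depended on whether replicates were paired, and after longer PB both higher and lower members were called. Of the 9 members, 6 had enough reads to be tested in SH-SY5Y and 7 in each of the other lines, and ALK, GFRA3 and NGFR were tested in all 3 lines. At 24 h, 3 of 6 were called in SH-SY5Y (21.5% of all genes), each of them higher (10.5%), while 0 of 7 were called in IMR-32 (18.3%) and 0 of 7 in SK-N-BE(2)C (21.5%). In SK-N-BE(2)C 2 members (RET and NTRK3) and in IMR-32 1 (GFRA3) had an unadjusted p under 0.05 at that time, and DESeq2 called 0 and 1 of them. With the replicate block, 3 of 7 were called at 24 h in SK-N-BE(2)C (ALK, GFRA2 and NGFR, 22.7% of all genes), 1 of 7 in IMR-32 (GFRA3, 21.8%) and 3 of 6 in SH-SY5Y (22.2%). After longer PB, SK-N-BE(2)C had 4 of 7 called (46.8% of all genes), 2 higher (24.5%) and 2 lower (22.3%). The calls in IMR-32 were 2 of 7 (32.0%), both lower (15.5%), and those in SH-SY5Y 5 of 6 (35.9%), of which 4 were higher (18.6%) and 1 lower (17.3%). The members' median log2 fold change after longer PB was 0.89 in SH-SY5Y, 0.16 in IMR-32 and -0.13 in SK-N-BE(2)C, beside 0.01, 0.00 and 0.01 for all genes tested. From 24 h to the later time, SK-N-BE(2)C had 2 of 7 called (31.9% of all genes), both lower (14.4%). IMR-32 had 3 of 7 (19.6%), 1 higher (10.8%) and 2 lower (8.86%), and SH-SY5Y 3 of 6 (16.7%), 2 higher (10.5%) and 1 lower (6.23%). Groups of 5 that did not overlap were common among all genes tested: 39.3% of genes at 24 h, 53.8% at 7 d and 40.4% between the PB times in SK-N-BE(2)C, with 23.1%, 39.1% and 23.5% for IMR-32 and 38.5%, 47.0% and 24.7% for SH-SY5Y in the same order. The 24 h and the longer comparison share their control libraries, so they are not independent of each other. In bulk RNA, fewer cells expressing a receptor and less RNA in each cell cannot be told apart.

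Marker lists of cell state were followed as well. The 11 adrenergic markers had a higher summed level than in control, without overlap, in every line at both times. The most abundant genes weigh most in such a sum, and no share of all genes can be set beside it. By gene, the share called after longer PB was near or below that of all genes. The sum in SK-N-BE(2)C was 5256 to 5749 CPM in control cells, 7493 to 8430 CPM at 24 h and 7557 to 9950 CPM after 7 d. In IMR-32 it was 2478 to 3434, 3819 to 4686 and 3564 to 4457 CPM in the same order, and in SH-SY5Y 5592 to 7352, 8311 to 10980 and 7462 to 9838 CPM. By gene, after longer PB, 2 rose and 1 fell of 11 in SH-SY5Y (27.3% called, against 35.9% of all genes), 3 rose and 1 fell for IMR-32 (36.4% against 32.0%), and 2 rose and 1 fell for SK-N-BE(2)C (27.3% against 46.8%). Of 14 mesenchymal-type neuroblastoma markers, 13 were found, and their summed level per library was 664.3 to 1242 CPM in IMR-32 control cells and 296.6 to 486.4 CPM after 5 d. In SH-SY5Y it went from 1948 to 2654 CPM down to 1477 to 1624 CPM, and in SK-N-BE(2)C, where the ranges overlapped, from 732.9 to 966.4 CPM down to 475.3 to 823.6 CPM. By gene, after longer PB, 0 rose and 5 fell of 7 tested in IMR-32 (71.4% called, against 32.0% of all genes), 0 rose and 7 fell of 12 for SH-SY5Y (58.3% against 35.9%), and 2 rose and 6 fell of 10 for SK-N-BE(2)C (80.0% against 46.8%). TWIST2 and COL1A2 were below 0.1 CPM in every group of IMR-32 and SK-N-BE(2)C. Schwann cell markers, 9 found of 10, summed to 65.8 CPM at most in any library, and their range after longer PB overlapped that of control cells in each line, with the median going from 63.1 to 46.35 CPM in SH-SY5Y, 10.5 to 8.63 CPM in IMR-32 and 32.0 to 23.8 CPM in SK-N-BE(2)C. Few were tested, and of these 2 rose and 1 fell of 4 in SH-SY5Y after 5 d (75.0% called, against 35.9%), 1 rose and 1 fell of 2 for IMR-32 (100.0% against 32.0%), and 1 rose and 2 fell of 5 for SK-N-BE(2)C after 7 d (46.8% of all genes were called). The part of these genes in the receptor changes was not tested.

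**Figure D2:**
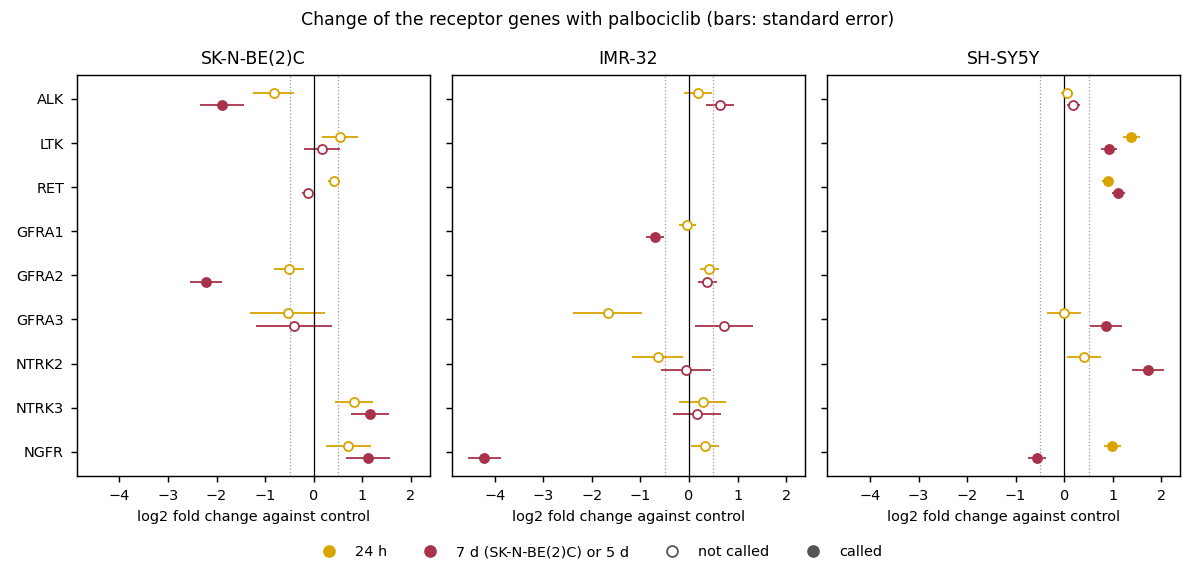
log2 fold change against control (x axis) with its standard error for each receptor gene tested, by line, at 24 h and after longer PB, with filled points for called changes and dotted lines at the limits of 0.5. NGFR moves to opposite sides in IMR-32 (-4.21) and SK-N-BE(2)C (1.11), and RET and LTK lie above 0.5 at both times in SH-SY5Y.

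ALK, at chr2:29415640-30144452 on the minus strand (GRCh37, as for the other gene positions), fell in SK-N-BE(2)C after 7 d of PB, and was not called in the other lines. Its control level in SK-N-BE(2)C was 14.4, 19.1, 7.49, 6.69 and 6.43 CPM in replicates 1 to 5, and after 7 d it was 5.56, 2.00, 2.19, 2.72 and 2.81 CPM. Every 7 d library lay below every control library, and the change was -1.89 ± 0.45 (SE; 3.71-fold lower, adjusted p = 0.0017). At 24 h the values were 9.69, 10.8, 2.83, 3.51 and 4.17 CPM. They overlapped the control range, because replicates 1 and 2 were higher than replicates 3 to 5 in both groups, and the unpaired change of -0.83 ± 0.43 was not called (adjusted p = 0.13). Within each replicate number the 24 h value was lower in 5 of 5, and with the replicate as a block the change was -0.87 ± 0.24 (adjusted p = 0.0096). With the closely alike replicates 3 to 5 summed to 1, in a fit without the block, it was not called (-0.79 ± 0.52, adjusted p = 0.30). The unpaired fit of all replicates had not called it either, so the summed fit does not test the blocked call. From 24 h to 7 d the difference of -1.07 was not called (adjusted p = 0.057). It was called in 5 of the 15 fits that left out 1 library. With the replicate block it was -0.93 (adjusted p = 0.0096), though the lowest same-number correlation between those groups was 0.03.

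In IMR-32, ALK was at 94.7, 95.8, 118, 71.5 and 158 CPM in control cells, and at 186, 162, 172, 175 and 149 CPM after 5 d. In replicates 1 to 4 the 5 d level was the higher, and in replicate 5, whose control and 24 h libraries (158 and 235 CPM) were the highest of their groups, it was the lower. The change of 0.64 ± 0.29 was not called (adjusted p = 0.083). With the replicate block it was 0.72 ± 0.23 (adjusted p = 0.016), and without replicate 5 it was 0.87 ± 0.17 (adjusted p = 0.00055), so the call depends on the pairing and on that replicate. The step from 24 h to 5 d behaved in the same way, at 0.45 ± 0.29 (adjusted p = 0.25), 0.61 ± 0.23 with the block (adjusted p = 0.047) and 0.88 ± 0.17 without replicate 5 (adjusted p = 0.00078). In SH-SY5Y, the line with mutant ALK, mean ALK was 46.6 ± 6.55 CPM (SD, n = 5) in control cells, 48.8 ± 3.24 at 24 h and 55.6 ± 11.6 after 5 d. Those groups overlapped, and the 5 d change was 0.19 ± 0.13 (interval -0.09 to 0.46, adjusted p = 0.20). The longer response of ALK in SK-N-BE(2)C differed from that in IMR-32 by -2.52 ± 0.47 (adjusted p = 7e-05) and from that in SH-SY5Y by -2.13 ± 0.48 (adjusted p = 0.00069). Of the 5 members with enough reads in both lines, the longer response differed for 3 in the first of these pairs (23.9% of all genes) and for 3 of 5 in the second (21.2%).

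RET, at chr10:43572512-43625799 on the plus strand, and LTK, at chr15:41795835-41806085 on the minus strand, rose together in SH-SY5Y at both times. The 250 bases upstream of their RefSeq start sites are shown with those of ALK, which fell in SK-N-BE(2)C, so that the 3 receptor kinases can be compared (GRCh38.p14, 5′ to 3′ on the strand of the gene). Capitals mark GC boxes, the letters GGGCGG on either strand, which the transcription factor family of SP1 binds.

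RET upstream window, chr10:43076819-43077068, plus strand: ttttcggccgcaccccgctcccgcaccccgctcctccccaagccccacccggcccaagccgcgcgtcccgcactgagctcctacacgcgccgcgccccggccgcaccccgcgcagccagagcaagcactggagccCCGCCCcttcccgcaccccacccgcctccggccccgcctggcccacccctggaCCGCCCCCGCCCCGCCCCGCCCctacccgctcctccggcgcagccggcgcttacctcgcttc
LTK upstream window, chr15:41513828-41514077, minus strand: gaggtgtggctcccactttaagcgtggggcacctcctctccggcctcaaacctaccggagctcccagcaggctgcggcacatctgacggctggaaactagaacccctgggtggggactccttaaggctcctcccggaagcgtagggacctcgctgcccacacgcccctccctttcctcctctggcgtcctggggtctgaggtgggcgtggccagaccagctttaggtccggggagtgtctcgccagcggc
ALK upstream window, chr2:29921587-29921836, minus strand: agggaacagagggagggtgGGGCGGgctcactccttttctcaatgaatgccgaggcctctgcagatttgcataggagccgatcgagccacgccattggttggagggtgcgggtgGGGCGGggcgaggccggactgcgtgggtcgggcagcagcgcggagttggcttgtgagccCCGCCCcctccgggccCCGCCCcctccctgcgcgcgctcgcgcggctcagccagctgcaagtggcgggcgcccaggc

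The RET window held 5 GC boxes, some of which share letters with the next, and 79.6% G and C. The ALK window held 4 GC boxes at 71.6% G and C, and the LTK window, at 66.0% G and C, held 0. GC boxes are common, with at least 1 in 42.6% of 35116 RefSeq windows of this length. The letters TTTNNCGC, a form of the E2F site, and CACGTG, the E-box that MYC proteins bind, were in none of the 7 windows found for the members, against 5.92% and 6.34% of all windows. A match is a description of the letters and not a binding site.

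In SH-SY5Y, RET was at 672, 894, 794, 844 and 709 CPM in control cells and at 1281, 1728, 1521, 1504 and 1321 CPM at 24 h. Every 24 h library lay above every control library (0.90 ± 0.13, 1.86-fold higher, adjusted p = 1.5e-05). After 5 d it was at 2142, 1962, 1716, 1906 and 1186 CPM, again without overlap with control (1.11 ± 0.13, 2.17-fold higher, adjusted p = 6.9e-07). The step from 24 h to 5 d was within the spread (0.22 ± 0.13, adjusted p = 0.18). RET in SK-N-BE(2)C, where its control level did not differ detectably from that in SH-SY5Y, took another course. It was at 616, 573, 752, 768 and 759 CPM in control cells, 893, 778, 1033, 1029 and 1007 CPM at 24 h, and 770, 521, 564, 693 and 714 CPM after 7 d. The 24 h libraries all lay above the control libraries, but the change of 0.42 ± 0.12 (adjusted p = 0.0082) was under the limit of 0.5, and at 7 d the groups overlapped and no change was called (-0.13 ± 0.12, adjusted p = 0.34). The fall from 24 h to 7 d was called at -0.55 ± 0.12 (adjusted p = 0.00088), close to the limit. It dropped below it without the 7 d library of replicate 2 (-0.47) or of replicate 3 (-0.49) and with replicates 3 to 5 summed to 1 (-0.49). In IMR-32, RET reached 1.90 CPM in the 5 d library of replicate 5 and 0.60 CPM or less in the other 14 libraries, too few reads for a test in that line.

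The longer response of RET in SK-N-BE(2)C was below that in SH-SY5Y by 1.27 ± 0.27 on the log2 scale (adjusted p = 0.00028). The fit over all lines also called RET differences that involve IMR-32 (-4.60 ± 0.93 for SK-N-BE(2)C against IMR-32, and 3.33 ± 1.01 for IMR-32 against SH-SY5Y), which rest on those few reads, and the second was lost without replicate 5 (2.58, adjusted p = 0.071).

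LTK in SH-SY5Y was at 13.6, 12.4, 14.4, 11.2 and 11.6 CPM in control cells, at 39.8, 29.7, 36.5, 28.3 and 31.8 CPM at 24 h and at 37.6, 23.5, 17.6, 28.9 and 18.2 CPM after 5 d. Neither PB group overlapped the control group. The change was 1.38 ± 0.17 at 24 h (2.61-fold higher, adjusted p = 3.9e-06) and 0.92 ± 0.17 after 5 d (1.89-fold higher, adjusted p = 0.00015). Between the PB times it slipped by 0.46 on the log2 scale (adjusted p = 0.03, under the limit), and the 5 d library of replicate 1 was the highest of its group: without it the step was -0.62 ± 0.13 and was called (adjusted p = 0.0016). The step was also called without the 24 h or the 5 d library of replicate 4 (-0.51 and -0.52, adjusted p = 0.028 and 0.026). In SK-N-BE(2)C, LTK ranged from 23.0 to 55.7 CPM in control cells, from 31.6 to 85.5 CPM at 24 h and from 20.3 to 78.6 CPM after 7 d. The groups overlapped, replicates 1 and 2 being below replicates 3 to 5 in control cells and at 24 h, and no change was called (0.54 ± 0.37 at 24 h, adjusted p = 0.26). Within each replicate number the 24 h value was nevertheless the higher, in 5 of 5, and the change was not called with the replicate block either (0.49 ± 0.21, adjusted p = 0.076). IMR-32 held at most 0.712 CPM of LTK in any library.

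**Figure D3:**
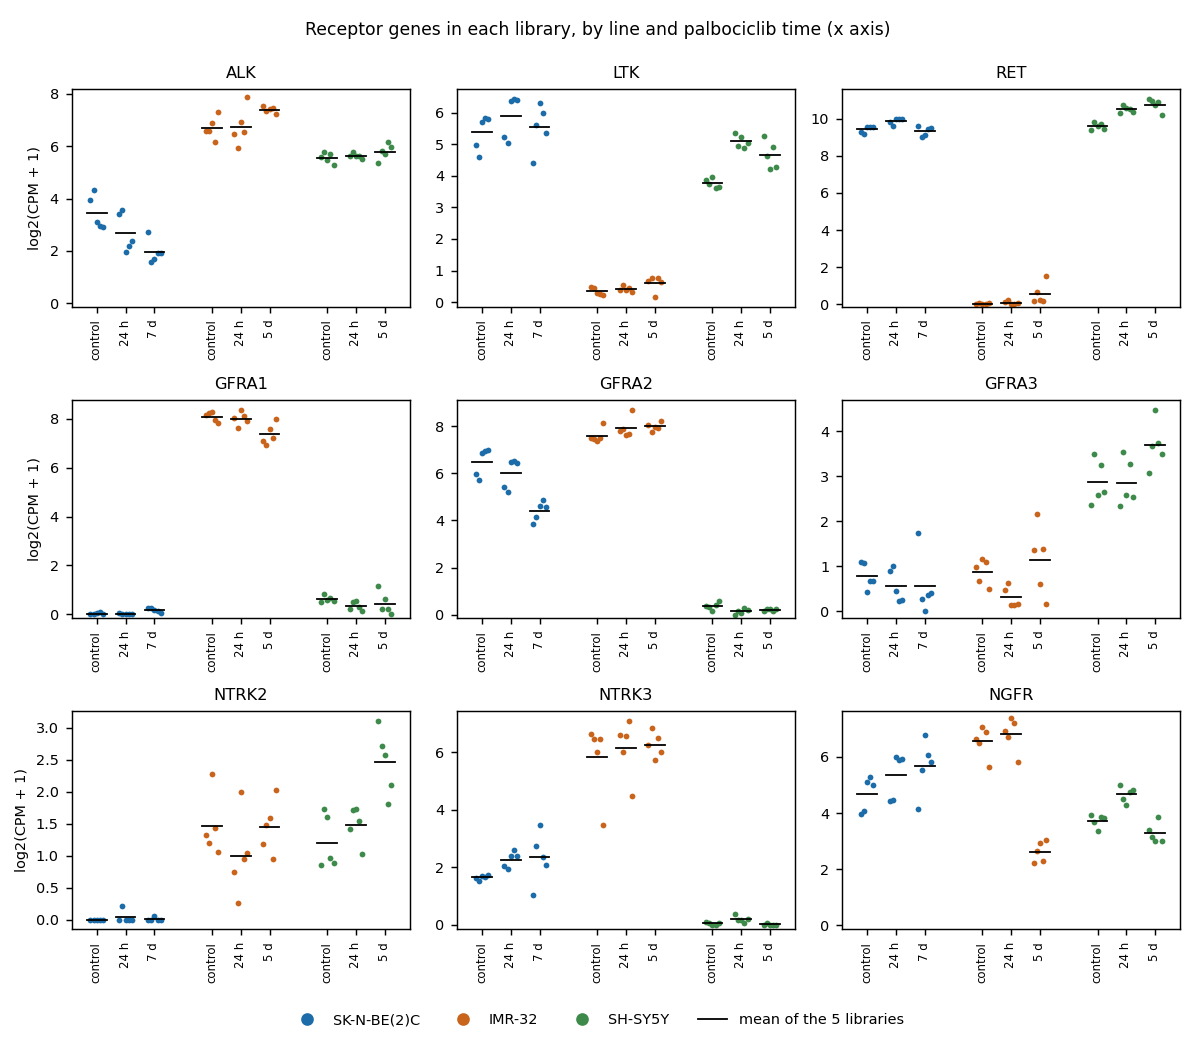
log2(CPM + 1) (y axis) of the 9 receptor genes in each of the 45 libraries, by line and PB time along the x axis, with a bar at the mean of the 5 log values. RET and LTK step up at 24 h in SH-SY5Y, GFRA2 falls by 7 d in SK-N-BE(2)C, and NGFR in IMR-32 drops from 49.5 to 132 CPM in control cells to between 3.61 and 7.22 CPM after 5 d.

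Among the RET coreceptors, GFRA2 fell in SK-N-BE(2)C and GFRA1 in IMR-32. GFRA2, the neurturin coreceptor on chromosome 8, was at 61.7, 52.1, 118, 121 and 125 CPM in SK-N-BE(2)C control cells and at 13.6, 16.6, 23.5, 28.6 and 22.8 CPM after 7 d. Every 7 d library was below every control library and every 24 h library (41.5, 35.6, 87.9, 90.5 and 86.9 CPM). The change was -2.22 ± 0.33 against control (4.67-fold lower, adjusted p = 2.8e-05) and -1.71 ± 0.33 against 24 h (3.27-fold lower, adjusted p = 0.00045). At 24 h the unpaired change of -0.51 ± 0.31 was not called (adjusted p = 0.20). Each 24 h library was nevertheless below the control of its own number, and with the replicate block the change was -0.53 ± 0.09 (adjusted p = 0.0003). With replicates 3 to 5 summed to 1, in a fit without the block, it was not called (-0.54 ± 0.41, adjusted p = 0.37), which does not test the blocked call.

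GFRA2 did not fall in IMR-32. It was at 180, 175, 164, 179 and 283 CPM in control cells, at 222, 238, 199, 203 and 412 CPM at 24 h, and at 268, 218, 252, 242 and 302 CPM after 5 d. Replicate 5 was the highest at every time, and in replicates 1 to 4 each PB library was above every control library. Within each replicate number, replicate 5 included, both PB values were above control. Neither change was called unpaired (0.42 ± 0.20 at 24 h, adjusted p = 0.12, and 0.37 ± 0.20 after 5 d, adjusted p = 0.13) or with the replicate block. Both were called when the control library of replicate 5 was left out (0.60 ± 0.18, adjusted p = 0.021, and 0.55 ± 0.18, adjusted p = 0.020). The longer response in SK-N-BE(2)C differed from that in IMR-32 by -2.57 ± 0.34 (adjusted p = 1.9e-07). In SH-SY5Y, GFRA2 was at most 0.476 CPM in any library and was not tested.

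GFRA1, the GDNF coreceptor, at chr10:117816436-118036315 on the minus strand, was above 2 CPM in IMR-32 only. Its values there were 280, 295, 308, 248 and 226 CPM in control cells, 256, 194, 324, 276 and 235 CPM at 24 h, and 136, 120, 188, 146 and 250 CPM after 5 d. In replicates 1 to 4 every 5 d library was below every control library, and replicate 5 was the exception. The level did not differ detectably at 24 h (-0.03 ± 0.18, interval -0.42 to 0.35) and fell after 5 d (-0.70 ± 0.18, 1.62-fold lower, adjusted p = 0.0042), a call that held in each of the 15 fits that left out 1 library. In SK-N-BE(2)C no library passed 0.216 CPM and in SH-SY5Y none passed 1.23 CPM. A difference in longer response between SK-N-BE(2)C and IMR-32 (3.11 ± 1.24, adjusted p = 0.049) rests on those few reads, and was lost with the replicate block (adjusted p = 0.079).

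GFRA3, the artemin coreceptor, at chr5:137588069-137610310 on the minus strand, was the one member with detectable but low reads in every line. In SH-SY5Y it was at 4.14, 10.3, 4.95, 8.54 and 5.29 CPM in control cells and at 7.45, 11.7, 21.1, 12.3 and 10.3 CPM after 5 d. The 5 d value was higher than the control of the same number in 5 of 5 replicates, although the groups overlapped. The change of 0.86 ± 0.33 was called (adjusted p = 0.033), but not without the 5 d library of replicate 3 (0.58 ± 0.31, adjusted p = 0.11), nor without the control library of replicate 1, 3 or 5 (adjusted p = 0.081, 0.076 and 0.071). The rise from 24 h to 5 d was called at 0.87 ± 0.34 (adjusted p = 0.048), a call kept in 6 of the 15 fits that left out 1 library and lost with no filter on low counts (adjusted p = 0.10). In IMR-32, GFRA3 went from 0.871 ± 0.359 CPM (SD, n = 5) to 0.255 ± 0.205 at 24 h and 1.46 ± 1.31 after 5 d. The rise from 24 h to 5 d was called (2.39 ± 0.69, adjusted p = 0.015) and was lost without the 5 d library of replicate 2 (1.78 ± 0.66, adjusted p = 0.057), while the fall at 24 h was called only with the replicate block (-1.83 ± 0.58, adjusted p = 0.020; without the block -1.67 ± 0.71, adjusted p = 0.082), without replicate 5, without the 5 d library of replicate 5, or with DESeq2. In SK-N-BE(2)C, 14 of the 15 libraries were at 1.12 CPM or less, and the 7 d library of replicate 1 was at 2.34 CPM. The 7 d change of -0.40 ± 0.78 was not called (adjusted p = 0.65), and without that library it was -1.99 ± 0.67 and was called lower (adjusted p = 0.014).

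NGFR, at chr17:47572655-47592370 on the plus strand, had the largest change with PB of any member tested within a line, and the widest difference between lines in the response to longer PB. In IMR-32 it was at 99.1, 89.7, 132, 119 and 49.5 CPM in control cells and at 121, 103, 166, 146 and 55.9 CPM at 24 h. The 24 h library was the higher in 5 of 5 replicates but the groups overlapped (0.32 ± 0.29, adjusted p = 0.42). After 5 d it was at 3.61, 5.18, 6.71, 3.84 and 7.22 CPM, far below every library of the other groups. The change was -4.21 ± 0.34 against control (18.5-fold lower, adjusted p = 6.2e-07) and -4.53 ± 0.34 against 24 h (23.1-fold lower, adjusted p = 3.4e-07).

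In SH-SY5Y, NGFR rose and then fell. It was at 14.4, 11.8, 9.12, 13.6 and 13.3 CPM in control cells, at 30.7, 21.4, 18.6, 26.0 and 27.6 CPM at 24 h and at 9.46, 7.81, 6.90, 13.4 and 6.95 CPM after 5 d. The 24 h group lay above both others without overlap (0.99 ± 0.17 against control, 1.98-fold higher, adjusted p = 0.00016; -1.54 ± 0.18 for 5 d against 24 h, adjusted p = 9.3e-06). The 5 d level was also below control (-0.55 ± 0.18, adjusted p = 0.013), with overlapping groups and close to the limit, which it missed without the 5 d library of replicate 3 (-0.48) or of replicate 5 (-0.49) and with scaling by library size alone (-0.48).

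NGFR went the other way in SK-N-BE(2)C. It was at 14.5, 16.0, 33.6, 38.0 and 31.4 CPM in control cells, at 20.5, 21.1, 63.1, 58.0 and 59.95 CPM at 24 h and at 16.7, 45.02, 110, 66.7 and 56.2 CPM after 7 d. Within each replicate number both PB values were above control, and replicates 1 and 2 started at about the same low level, apart from replicates 3 to 5. The 24 h change was not called unpaired (0.71 ± 0.46, adjusted p = 0.22), was called with the replicate block (0.65 ± 0.20, adjusted p = 0.017), and was not called with replicates 3 to 5 summed (0.63 ± 0.60, adjusted p = 0.48). That summed fit had no block, so it does not test the blocked call. The 7 d change was called at 1.11 ± 0.46 (2.16-fold higher, adjusted p = 0.041) and was lost without the control library of replicate 1, 2 or 5 or the 7 d library of replicate 3, 4 or 5 (0.75 to 1.17, adjusted p up to 0.15), and with replicates 3 to 5 summed (adjusted p = 0.14). The longer responses differed for SK-N-BE(2)C against IMR-32 (5.35 ± 0.54, adjusted p = 5.6e-10) and for IMR-32 against SH-SY5Y (-3.72 ± 0.55, adjusted p = 2e-06), where 2 of the 4 members with enough reads in both lines differed (20.8% of all genes). Between SK-N-BE(2)C and SH-SY5Y the difference was 1.63 ± 0.52 (adjusted p = 0.014), and it was lost without replicate 2 (adjusted p = 0.06) or replicate 3 (adjusted p = 0.074). Exons of other genes on the opposite strand, among them NGFR-AS1, cover 27.2% of the NGFR exon bases, and whether the deposited counts were made by strand is not stated, so reads of the overlapping genes could not be told apart.

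The BDNF receptor NTRK2, at chr9:87283290-87710666 on the plus strand, rose late in SH-SY5Y. It was at 0.802, 2.31, 2.03, 0.954 and 0.846 CPM in control cells, at 1.66, 2.27, 2.31, 1.91 and 1.05 CPM at 24 h and at 7.61, 5.58, 4.97, 2.52 and 3.32 CPM after 5 d. The 5 d libraries lay above all others, by 1.73 ± 0.33 against control (3.31-fold higher, adjusted p = 0.00018) and 1.324 ± 0.32 against 24 h (adjusted p = 0.0034), from a low level. In IMR-32 it stayed between 0.20 and 3.87 CPM with no change called (-0.65 ± 0.52 at 24 h, adjusted p = 0.37; -0.06 ± 0.51 after 5 d, adjusted p = 0.93). The 24 h value was the lower in 5 of 5 replicate numbers, and the fall was called without the 24 h library of replicate 3 (-1.37 ± 0.48, adjusted p = 0.046). The difference between those lines in longer response was -1.84 ± 0.62 (adjusted p = 0.020) and was lost when replicate 1, 3 or 4 was left out of all groups (adjusted p up to 0.15). SK-N-BE(2)C had NTRK2 reads in 2 of 15 libraries.

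NTRK3, the NTF3 receptor, at chr15:88402982-88800022 on the minus strand, was high in IMR-32 and low elsewhere. In SK-N-BE(2)C it was at 2.11, 1.89, 2.25, 2.15 and 2.33 CPM in control cells, at 3.10, 2.87, 4.22, 5.02 and 4.27 CPM at 24 h and at 1.07, 5.72, 10.1, 4.197 and 3.19 CPM after 7 d. All 24 h libraries were above all control libraries (0.82 ± 0.39, adjusted p = 0.094), a rise that was called when the 7 d library of replicate 1 or 3, the most variable of the line, was left out of the fit (0.81 in each case, adjusted p = 0.020 and 0.033). The 7 d change was called (1.15 ± 0.38, adjusted p = 0.013) in spite of replicate 1, whose 7 d value was under its control. It was lost without the 7 d library of replicate 3 (0.68 ± 0.31, adjusted p = 0.065) and with replicates 3 to 5 summed (1.04 ± 0.48, adjusted p = 0.089). In IMR-32, NTRK3 was at 99.8, 88.4, 64.2, 87.7 and 10.2 CPM in control cells and at 75.2, 113, 52.1, 89.7 and 64.4 CPM after 5 d. Replicate 5 was low in control cells and at 24 h (21.2 CPM) and joined the others at 5 d, and no change was called (0.16 ± 0.49 after 5 d, interval -0.91 to 1.24). In SH-SY5Y no library passed 0.297 CPM.

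In the unpaired fit, the responses at 24 h did not differ detectably between lines for any member with enough reads in both. The count was 0 of 5 for SK-N-BE(2)C against IMR-32 (4.49% of all genes) and 0 of 5 for SK-N-BE(2)C against SH-SY5Y (2.04%). For IMR-32 against SH-SY5Y it was 0 of 4 (3.07%). The other members entered the fit through the line in which they were high, so they are left out of these counts. At an unadjusted p under 0.05, the fit gave ALK and GFRA2 for SK-N-BE(2)C against IMR-32 (-1.001 ± 0.45 and -0.93 ± 0.33) and LTK for SK-N-BE(2)C against SH-SY5Y (-0.88 ± 0.37). With the replicate of each line as a block, 2 of 5 differed in the first pair (6.88% of all genes) and 2 of 5 in the second (4.11%). These were ALK and GFRA2 (adjusted p = 0.049 and 1.4e-05), then LTK and RET (adjusted p = 0.017 and 0.019). The third pair (5.69%) gave GFRA2 alone (adjusted p = 0.039), which had too few reads for a test within SH-SY5Y (under 0.5 CPM). With replicates 3 to 5 of SK-N-BE(2)C summed to 1, in a fit without the block, 0 of 5 differed in each of the first and second pairs (ALK adjusted p = 0.35, GFRA2 0.17, LTK 0.35 and RET 0.64). The unpaired fit of all replicates had called 0 as well, so the summed fit does not test the blocked calls.

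The ligand genes were fixed as a list of 12, of which 11 were found. Midkine (MDK) and pleiotrophin (PTN), heparin-binding growth factors that have been proposed as ALK ligands, were the most abundant. MDK fell after longer PB in every line, from 595 ± 84.1 to 406.5 ± 47.4 CPM (SD, n = 5) in SH-SY5Y, 800.4 ± 88.3 to 362.6 ± 46.5 CPM in IMR-32 and 85.0 ± 10.5 to 30.9 ± 6.92 CPM in SK-N-BE(2)C. The changes were -0.62 ± 0.10, -1.15 ± 0.13 and -1.50 ± 0.13 (adjusted p = 4e-05, 5e-06 and 3.4e-08), and no change of MDK was called at 24 h. PTN fell in IMR-32 at both times (-1.31 ± 0.16 at 24 h, adjusted p = 1.4e-05) and in SH-SY5Y after 5 d (-1.41 ± 0.24, adjusted p = 0.00012), and stayed between 358.9 and 564.2 CPM in SK-N-BE(2)C. ALKAL2 was measured at about 1 CPM in IMR-32 alone (1.23 ± 0.413 CPM in control cells), and ALKAL1 was not analysed here.

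GDNF, the ligand of RET with GFRA1, was above 2 CPM in SK-N-BE(2)C only, a line in which no library passed 0.216 CPM of GFRA1, and ranged there from 1.72 to 53.0 CPM over the libraries. In IMR-32, the line with GFRA1, it was at 0.772 ± 0.199 CPM in control cells and fell to 0.0333 ± 0.0499 after 5 d (-4.28 ± 0.54, adjusted p = 1.5e-05). NRTN, the ligand for GFRA2, fell in both lines that express GFRA2: -2.10 ± 0.36 after 7 d in SK-N-BE(2)C (adjusted p = 6.5e-05, from 1.38 CPM) and -3.75 ± 0.69 after 5 d in IMR-32 (adjusted p = 0.00038, from 1.88 CPM). In SH-SY5Y it was at 7.38 ± 1.68 CPM in control cells and 7.84 ± 1.40 after 5 d. PSPN rose in SK-N-BE(2)C and SH-SY5Y after longer PB (1.30 ± 0.44 and 1.64 ± 0.25, adjusted p = 0.013 and 1.3e-05), and ARTN rose in IMR-32 (1.84 ± 0.43, adjusted p = 0.0023), both to under 4 CPM.

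The neurotrophin BDNF, the ligand of NTRK2, fell in IMR-32 from 12.4 ± 1.40 CPM in control cells to 5.33 ± 1.10 CPM after 5 d (-1.23 ± 0.16, adjusted p = 1.7e-05). BDNF was at 5.36 ± 1.52 CPM in SH-SY5Y control cells and 7.18 ± 1.24 after 5 d, a difference that was not called, and at 5.02 ± 2.15 and 4.56 ± 2.00 CPM in SK-N-BE(2)C. Over the list, 1 ligand rose and 6 fell of 9 tested in IMR-32 after 5 d (77.8% called, against 32.0% of all genes; median log2 fold change -1.20, against 0.00). For SK-N-BE(2)C 1 rose and 2 fell of 6 after 7 d (46.8% of all genes were called; median -0.20, against 0.01), and for SH-SY5Y 1 rose and 2 fell of 6 after 5 d (35.9%; median 0.18, against 0.01).

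**Figure D4:**
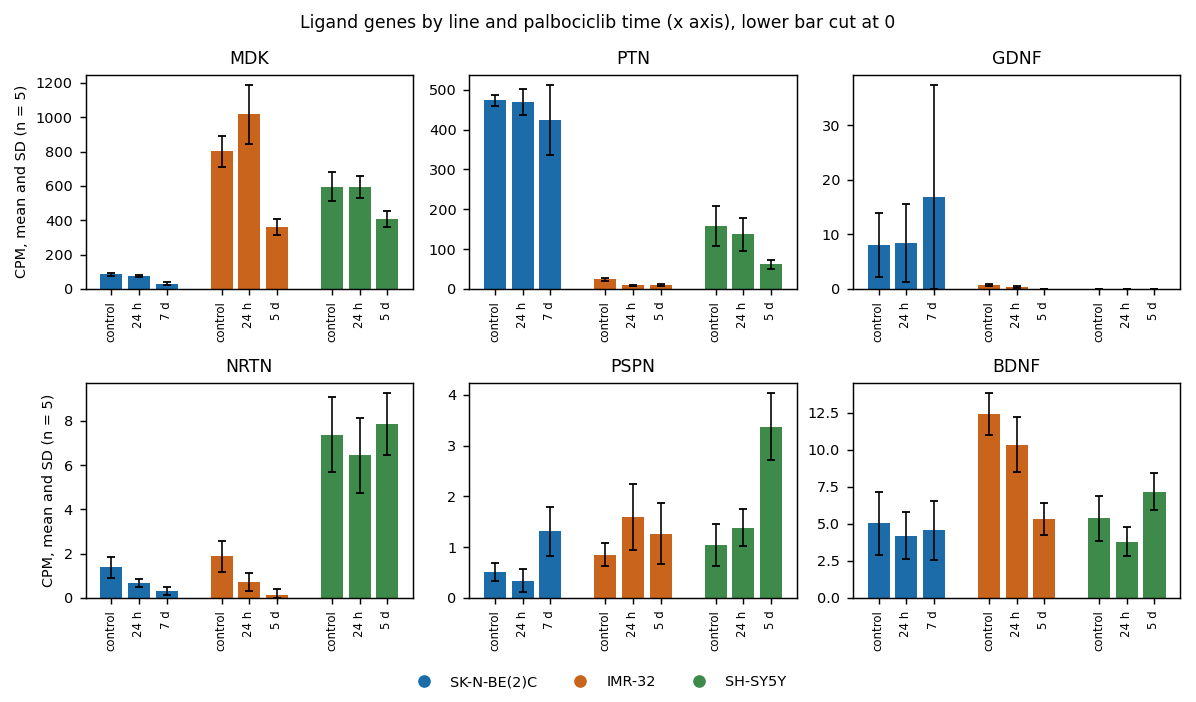
Mean CPM (y axis, from 0) and SD over 5 libraries of 6 ligand genes by line and PB time, the lower error bar ending at 0 where it would pass it. MDK is lower after longer PB in all lines, BDNF decreases in IMR-32 from 12.4 to 5.33 CPM, and PSPN rises in SH-SY5Y from 1.04 to 3.37 CPM.

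Adaptor genes that link these kinases to RAS and PI3K were a list of 28. After longer PB, 11 rose and 1 fell of 24 tested in SK-N-BE(2)C (median log2 fold change 0.45, 46.8% of all genes called). The counts were 5 higher and 2 lower of 25 for IMR-32 (median 0.13, 32.0%) and 5 higher and 1 lower of 23 for SH-SY5Y (median 0.16, 35.9%). The insulin receptor substrate IRS1 fell in all lines at both times (-1.29 ± 0.17 in SH-SY5Y, -0.62 ± 0.12 in IMR-32 and -0.78 ± 0.09 in SK-N-BE(2)C at 24 h). The adaptor SHC1 rose at 24 h in all lines (1.13 ± 0.08, 0.75 ± 0.16 and 0.80 ± 0.14 in the same order), and SHC2, its neuronal relative, after longer PB (1.38 ± 0.13, 1.24 ± 0.29 and 5.72 ± 0.18), with DOK3 (1.20 ± 0.16, 1.08 ± 0.28 and 1.09 ± 0.11). The adjusted p-values of these called changes were 0.0046 or lower. Among 20 feedback inhibitors, DUSP4, a phosphatase induced by ERK signalling, rose after longer PB in all lines (0.52 ± 0.16, 1.17 ± 0.30 and 1.01 ± 0.15, adjusted p = 0.0091, 0.0045 and 1.4e-05), the first close to the limit. Among the pathway output genes, CCND1, which encodes the cyclin partner of CDK4 and CDK6, rose at both times in all lines (0.77 ± 0.08, 1.36 ± 0.10 and 1.24 ± 0.07 after longer PB).

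ALK and NGFR were the only members with a mean of 1 CPM or more in some group of every line, the rule set for looking at genes of like pattern. Over the 45 libraries, with log2(CPM + 1) centred within each line, ALK was most like ATXN1 (Pearson r = 0.78), PDK3 (0.78) and YTHDC2 (0.75) among 12011 genes. NGFR was most like PYGL (0.86), SPARC (0.86) and COLGALT2 (0.84), and its correlation with ALK was -0.60. The libraries of 1 line and time share treatment and culture, so these values describe the pattern and are not tests.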

How the data were processed

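RNA was polyA-selected, made into libraries with a directional kit and sequenced as read pairs. Per the labels, the authors trimmed reads with Trim Galore 0.6.4 and aligned them to hg19 with STAR 2.6.1d. The strand setting of the counting is not stated. The deposited counts are whole-number reads per gene, with no normalization by the authors. The authors' CPM values and their DESeq2 1.32.0 comparison columns (fold changes and p-values) were not used.

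For each line, counts of its 15 libraries were filtered (filterByExpr, minimum count 10 and total 15), scaled by TMM and tested with edgeR 4.0.16 (quasi-likelihood F test, robust, R 4.3.3), with Benjamini-Hochberg adjustment over all genes tested. Differences between lines came from 1 fit over the 45 libraries. Standard errors are the log2 fold change over the square root of F, and 95% intervals use the t distribution on the residual degrees of freedom. CPM are counts scaled to each library's total, and RPKM divides these by the exon union of GENCODE on GRCh37, the same assembly as hg19. Groups follow the labels, and each group has 5 replicates, which are passages plated in independent experiments. Samples of the same number were compared after removing group means: every same-number correlation over genes was above 0.1 in 7 of 9 comparisons (lowest 0.12 to 0.36), so blocked values are given where they change a call. In the other comparisons the lowest was 0.03 (SK-N-BE(2)C, 7 d against 24 h) and 0.10 (SH-SY5Y, 5 d against control). Libraries of the first group were most like that of their own number in 3 of 5 cases or more. The exception was SK-N-BE(2)C at 7 d against 24 h, with 0 of 5. Whether the numbers mark pairs is thus not settled.

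All 9 members are named. Of the other lists, the text names ligands with a mean of at least 1 CPM in any group, and at most 4 genes a comparison that were called in the same direction in all 3 lines. The members and lists were chosen with earlier results of these data known, and counts on a list are descriptions. Upstream windows come from RefSeq (GRCh38.p14), with an entry for 7 of 9 members. The scripts were tested on simulated counts, and alternatives included DESeq2 1.42.0, other scalings and filters, the replicate block, and leaving out each library. Some listed genes, also ones that this rule would name, and line alterations are not reported here, though list counts include the genes.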

Additional observations from a re-analysis of the deposited data

Results flagged for a closer look

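Single libraries stood far from the other 4 of their group (a gap to the nearest value above 0.71 of the group's range) in 5 of the 60 groups of member values checked, and chance alone flags about 1 in 20. ALK reached 5.56 CPM in the 7 d library of replicate 1 in SK-N-BE(2)C, against 2.00 to 2.81 CPM in the others, and GFRA3 reached 2.34 CPM in the same library, against 0 to 0.330 CPM. Without that library the GFRA3 change after 7 d went from -0.40 to -1.99 and was called (adjusted p = 0.014). GFRA2 was at 283 CPM in the IMR-32 control library of replicate 5 (the others 164 to 180 CPM) and at 412 CPM in its 24 h library (the others 199 to 238 CPM). NTRK2 was at 3.87 CPM in the IMR-32 control library of replicate 3, against 1.09 to 1.71 CPM.

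The response to longer PB differed between lines for several members in the fit over all libraries, each value being the log2 fold change of the first line minus that of the second. SK-N-BE(2)C minus IMR-32 gave -2.52 for ALK, 3.11 for GFRA1, -2.57 for GFRA2, 5.35 for NGFR and -4.60 for RET. SK-N-BE(2)C minus SH-SY5Y gave -2.13 for ALK, 1.63 for NGFR and -1.27 for RET. IMR-32 minus SH-SY5Y gave -3.72 for NGFR, -1.84 for NTRK2 and 3.33 for RET. GFRA1 in SK-N-BE(2)C and RET in IMR-32 had too few reads to be tested within the line, so the differences that involve them rest on few reads. Differences that involve SK-N-BE(2)C set 7 d against 5 d, and line and duration cannot be told apart.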

How the results depend on the processing

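Of the members' single values, 678 kept direction and call, 25 gained a call, 36 lost one and 12 changed sign under alternatives other than leaving out 1 library, and with 1 library left out 835 kept both, 19 gained a call, 25 lost one and 21 changed sign. The number of members called moved by more than 1.5 times as follows. At 24 h in SK-N-BE(2)C it was 0, and became 1 with no fold limit, 1 in replicates 1 and 2 alone and 3 in replicates 3 to 5 alone, a split chosen after seeing the data. After 7 d it was 4, and became 2 with replicates 3 to 5 summed and 2 in replicates 1 and 2 alone. Between 24 h and 7 d it was 2, and became 1 with a fold limit of 1 and 1 with replicates 3 to 5 summed. DESeq2 called 1 at 24 h in IMR-32, where edgeR called 0. A fold limit of 1 left 1 of 2 after 5 d in IMR-32, 1 of 3 at 24 h in SH-SY5Y and 2 of 5 after 5 d in SH-SY5Y. Leaving out replicates gave 0 to 1, 2 to 5 and 1 to 3 members for SK-N-BE(2)C (24 h, 7 d and 7 d against 24 h), 0 to 1 at 24 h and 2 to 4 after 5 d for IMR-32, and 3 to 5 after 5 d for SH-SY5Y. From 24 h to 5 d it gave 2 to 4 members in each of those lines, where 3 were called. DESeq2 called 1 member more than edgeR in 4 other cases (3 after 5 d and 4 from 24 h to 5 d in IMR-32, 3 from 24 h to 7 d in SK-N-BE(2)C, and 4 from 24 h to 5 d in SH-SY5Y). It was run without the filter on low counts, on 9 members in each line. No member that edgeR tested gained a call in these 4 cases, so the added calls are of members with few reads.

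With the replicate block the number called was 3 at 24 h in SK-N-BE(2)C and 1 at 24 h in IMR-32, and the 24 h responses differed between lines for 2 members (SK-N-BE(2)C against IMR-32), 2 (SK-N-BE(2)C against SH-SY5Y) and 1 (IMR-32 against SH-SY5Y). The last was GFRA2, which had too few reads for a test within SH-SY5Y, so that difference rests on few reads. The block also called ALK from 24 h to 7 d in SK-N-BE(2)C (-0.93, with an adjusted p = 0.0096) and line differences in the longer response for LTK (SK-N-BE(2)C against SH-SY5Y, -0.77, adjusted p = 0.013) and GFRA2 (IMR-32 against SH-SY5Y, 1.30, adjusted p = 0.040), which had too few reads for a test within SH-SY5Y. With replicates 3 to 5 of SK-N-BE(2)C summed, in a fit without the block, ALK (-1.29, adjusted p = 0.088) and LTK (-0.73, adjusted p = 0.20) were not called, and the lowest same-number correlation from 24 h to 7 d was 0.032. Neither gene was called in the main fit without the block, so the summed fits do not test these blocked calls. The block gave no value for control levels between lines, since a replicate belongs to 1 line. Beyond these and the calls given in the report it changed no other call. Signs that changed with the block were those of NTRK2 (0.002, 5 d against control), GFRA2 (0.0056, 5 d against 24 h) and NTRK3 (0.11, 5 d against 24 h), all in IMR-32.

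The other changes of sign were in differences that were not called. In replicates 1 and 2 alone of SK-N-BE(2)C, GFRA3 was at 0.13 and RET at 0.077 after 7 d. Scaling by library size alone gave 0.011 for GFRA2 in IMR-32 (5 d against 24 h) and 0.0049 for GFRA3 in SH-SY5Y at 24 h. With replicates left out, the log2 fold change in SK-N-BE(2)C ran from -0.069 to 0.35 for LTK after 7 d, and between 24 h and 7 d from -1.45 to 0.57 for GFRA3 and from -0.13 to 0.58 for NTRK3. In IMR-32 it ran from -0.21 to 0.37 for ALK and -0.13 to 0.039 for GFRA1 at 24 h, from -0.47 to 0.36 for NTRK2 and -0.12 to 0.32 for NTRK3 after 5 d, and from -0.12 to 0.19 for GFRA2 and -0.36 to 0.13 for NTRK3 between 24 h and 5 d. In SH-SY5Y at 24 h it ran from -0.013 to 0.11 for ALK and -0.25 to 0.20 for GFRA3. The cause of these changes was not tested. Leaving a replicate number out of every group kept the line difference in longer response of GFRA1 in 1 of 5 fits (2.46 to 3.71), of NTRK2 in 2 of 5 (-2.24 to -1.46), of NGFR between SK-N-BE(2)C and SH-SY5Y in 3 of 5 (1.39 to 1.90) and of RET between IMR-32 and SH-SY5Y in 4 of 5 (2.58 to 3.80), and the other called differences in 5 of 5.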

Other observations

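Other receptor tyrosine kinases, a list of 49 outside the families described, gave the following counts after longer PB, whose differences between lines were not tested. In IMR-32, 3 rose and 19 fell of 32 tested (68.8%, against 32.0% of all genes), with a median log2 fold change of -0.81. The SK-N-BE(2)C counts were 14 higher and 10 lower of 33 (72.7%, against 46.8%; median 0.17), and those of SH-SY5Y 7 higher and 9 lower of 32 (against 35.9%; median -0.05). FLT4, the receptor for VEGF-C, fell in every line at both times (at 24 h -3.85 ± 0.39 in SH-SY5Y, -3.63 ± 0.54 in IMR-32 and -1.81 ± 0.22 in SK-N-BE(2)C, with adjusted p-values of 2.4e-07, 9.4e-05 and 4.3e-06). After longer PB the fibroblast growth factor receptor FGFR3 was lower in every line (-1.01 ± 0.17, -3.02 ± 0.69 and -1.29 ± 0.39 in the same order), as was the Wnt receptor ROR1 (-0.62 ± 0.06, -1.55 ± 0.19 and -0.77 ± 0.15).

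Feedback inhibitors of receptor kinase signalling, 20 genes, were called after 5 d in IMR-32 as 3 higher and 7 lower of 18 tested (55.6%, against 32.0% of all genes; median -0.09). SH-SY5Y had 3 higher and 0 lower of 18 (16.7%, against 35.9%), and SK-N-BE(2)C 5 higher and 1 lower of 17 after 7 d (35.3%, against 46.8%). NEDD4L, a ubiquitin ligase that acts on membrane proteins, rose between 24 h and the later time in every line (0.75 ± 0.10 in SH-SY5Y, 0.53 ± 0.11 in IMR-32 and 0.99 ± 0.06 in SK-N-BE(2)C). Pathway output genes were called as 4 higher and 2 lower of 14 in SH-SY5Y (42.9%, against 35.9% of all genes), 2 and 3 of 10 in IMR-32 (against 32.0%), and 5 and 4 of 14 in SK-N-BE(2)C (64.3%, against 46.8%) after longer PB. Coreceptors and receptor partners were called as 0 higher and 1 lower of 11 (9.09%), 3 and 3 of 13 (46.2%), and 6 and 1 of 12 (58.3%) in that order, against the same shares of all genes. Chromogranin A (CHGA), an adrenergic marker and secretory granule protein, rose at 24 h in every line (1.17 ± 0.19, 1.29 ± 0.21 and 0.77 ± 0.13).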
